A study of Mus musculus with 10 samples.

Results

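Macrophages of the aged inner ear were described in single-cell RNA libraries of wild-type CBA/J mice, and the macrophages of the cochlea, the organ of hearing, were compared with those of the vestibule, the organ of balance. A barcode was kept as a cell with at least 200 detected genes, at least 1000 unique molecular identifiers (UMIs, each standing for 1 captured RNA molecule) and under 25% of UMIs from mitochondrial genes. A kept cell was called a macrophage when it carried a UMI of at least 3 of the 5 genes C1qa, C1qb, C1qc, Cx3cr1 and Csf1r, and a UMI of fewer than 3 of the 6 hair cell genes Myo6, Myo7a, Pou4f3, Tmc1, Kncn and Gfi1. This rule found 656 macrophages among 17696 kept cells of 38783 barcodes. The hair cell condition removed 8 cells that otherwise met the rule.

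The mice were 22 months old and untreated, and all libraries shared age, strain and genotype, so age itself was not compared. Whole organs were microdissected and digested with collagenase without a sort, and several mice were pooled in each library. Of the 10 libraries, 5 per organ, replicate 2 of each organ shared nearly all of its barcodes with replicate 1 and was left out, which gave 4 libraries per organ. The cochlear libraries of replicates 1, 3, 4 and 5 held 20, 333, 25 and 29 macrophages with 92052, 1589159, 264599 and 153420 UMIs in sum. The vestibular libraries held 11, 133, 56 and 49 macrophages with 44881, 567422, 169388 and 242610 UMIs. Replicate 3 thus carried most of the cells in each organ, and each library was therefore given 1 summed profile. No barcode was shared by macrophages of different libraries.

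Macrophages are resident phagocytes that engulf debris and dying cells, present antigen and secrete complement and chemokines. Inner ear tissue contains them in the stria vascularis, the spiral ligament, the nerve and the vestibular stroma, often along blood vessels. Border and perivascular macrophages of other tissues are known for the scavenger receptors Mrc1, Cd163, Lyve1 and Stab1, while microglia are known for Cx3cr1 and P2ry12.

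The selected cells carried the wider macrophage programme that the rule did not read. Tyrobp, a signalling adaptor of myeloid receptors, had a UMI in 95.3% of macrophages and 7.32% of other kept cells. Fcer1g, the shared chain of Fc receptors, had one in 94.7% and 6.71%. Ms4a7, a membrane protein of macrophages, had one in 70.3% and 0.669%. These shares were read at similar depth, with a median of 2568 UMIs per macrophage and 2186.5 per other cell. As counts per 1000000 UMIs (CPM, over all UMIs of the macrophages of a library), Adgre1, which encodes the F4/80 antigen, reached 126 ± 39.8 (SD, n = 8), which was 126-fold its level in the other cells. Trem2, a lipid-sensing receptor, reached 578 ± 279 CPM and was 59.6-fold higher than in the other cells. Ctss, a lysosomal protease, reached 2141 ± 914 CPM and was 58.5-fold higher. These ratios were taken on UMIs pooled over libraries and are a description, since the same cells were chosen by their expression.

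The rule genes themselves are given only as a description. C1qa, C1qb and C1qc encode the chains of complement C1q and lie next to each other on chromosome 4 (chr4:136895917-136898803, chr4:136880129-136886187 and chr4:136889804-136893065, mm10). C1qa stood at 4117, 4022, 1175 and 2327 CPM in cochlear replicates 1, 3, 4 and 5 and at 4367, 4090, 4026 and 2840 CPM in the vestibular ones (in mean 2910 ± 1419 and 3831 ± 677). Cochlear replicate 4 was the lowest library for each of the 5 genes. Csf1r, the receptor of the growth factor that maintains macrophages, had 464 ± 125 CPM in the cochlea and 906 ± 265 in the vestibule (SD, n = 4), without overlap of the libraries. Cx3cr1, the fractalkine receptor, had 727 ± 374 and 800.2 ± 233 CPM, with wide overlap.

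Cells at the edge of the rule were less clearly macrophages. The 139 macrophages with exactly 3 of the 5 genes had a UMI of Tyrobp in 88.5% and of Ctss in 65.5%, and the 127 cells left out with exactly 2 had them in 67.7% and 53.5%. The 321 cells with all 5 genes had them in 98.1% and 96.6%. Mrc1 followed the same order, with a UMI in 11.8%, 26.6% and 64.8% of the cells with 2, 3 and 5 genes. These shares were read at unequal depth, with medians of 2720, 1719 and 2912 UMIs a cell.

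Transcripts of marker genes of other cell types were counted in the macrophages, and their source was not tested. Apart from mitochondrial and ribosomal protein genes, the most abundant transcripts were Malat1 at 29488 CPM, Hbb-bs at 22510 CPM, Apoe at 21005 CPM and Fth1 at 17336 CPM. These are means over libraries. The level of Hbb-bs ran from 22.3 to 114328 CPM, and without vestibular replicate 5, its highest library, its mean was 9393 CPM and it ranked 8 in place of 2. Hbb-bs, a haemoglobin chain, stood at 21765 CPM in the other cells pooled over libraries, and Ptgds, a secreted fibrocyte protein at 12329 CPM in macrophages, at 26322 CPM. In macrophages Ptgds ran from 45.4 to 3734 CPM in the cochlear libraries and from 10840 to 49455 CPM in the vestibular ones. Without vestibular replicate 4, its highest library, its mean was 7025 CPM. Of the 656 macrophages, 411 carried a UMI of at least 3 marker genes of some other cell type (205 cochlear cells, 50.4%, and 206 vestibular cells, 82.7%), and in 360 of them the fibrocyte list was met. The summed level of the 14 fibrocyte markers was 1086, 7812, 5892 and 7424 CPM in the cochlear macrophages and 41933, 16506, 56639 and 14620 CPM in the vestibular ones, without overlap. In the other cells of the same organs it was 12555 and 56581 CPM. The summed level of the 8 endothelial markers ran the other way, at 272, 661, 1470 and 1414 CPM against 0, 72.3, 5.90 and 33.0 CPM, and Emcn was the most abundant of them. Of the T and natural killer cell markers, Cd8a, Gzma and Klrb1c had no UMI. The most abundant of that list, Cd3d, stood at 2.98 CPM.

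The share of macrophages among the kept cells was higher in each cochlear library than in each vestibular library. The 5 rule genes decide which cells count as macrophages, so the share is a description, and the exact permutation test computed for it (p = 0.0286, the smallest value that 4 against 4 libraries allow) supports nothing here. Macrophages were 3.50%, 6.57%, 3.60% and 3.10% of kept cells in cochlear replicates 1, 3, 4 and 5, and 1.27%, 2.45%, 2.29% and 2.93% in the vestibular ones. The means were 4.19 ± 1.60% and 2.23 ± 0.699% (SD, n = 4 libraries per organ), a difference of 1.96 percentage points. Without cochlear replicate 3 the difference was 1.17 points.

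**Figure D1:**
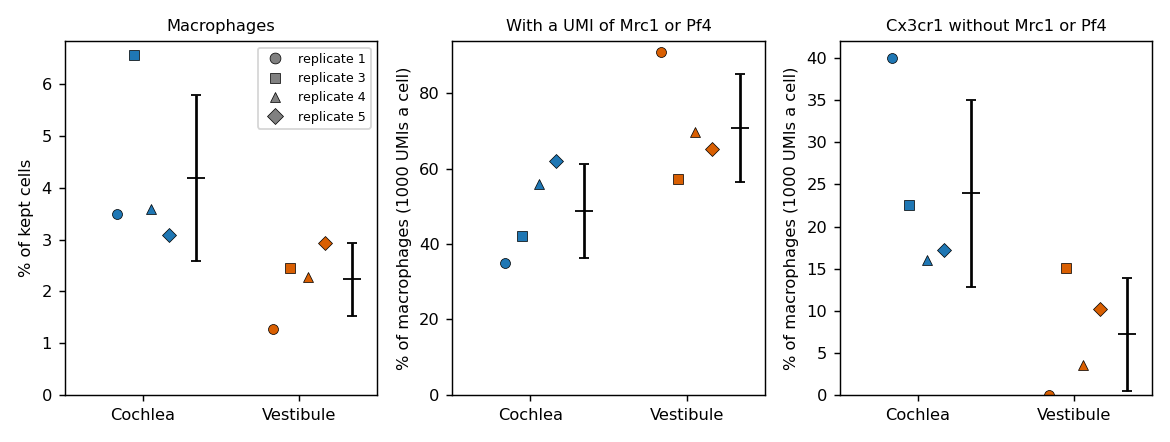
Shares per library in cochlea (blue) and vestibule (orange), with the replicate number given by the symbol and the mean ± SD of 4 libraries as a bar. Left, macrophages as a percentage of kept cells, where cochlear replicate 3 stands highest at 6.57%; middle and right, macrophages with a UMI of Mrc1 or Pf4, and with Cx3cr1 but neither of them, as a percentage of macrophages after thinning each cell to 1000 UMIs.

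Genes of border macrophages were among those higher in the vestibule. Between the organs, 2886 genes were tested on the summed UMIs and 29 passed an adjusted p of 0.05 (1.00%), of which 9 were higher in the vestibule (0.312%) and 20 in the cochlea (0.693%). This balance was not steady, with 8 higher in the vestibule and 1 in the cochlea after thinning to 1000 UMIs a cell, and 14 and 13 without cochlear replicate 3. Of the 9 first named as higher in the vestibule, just 3 had at least a 4-fold higher level in vestibular macrophages than in the other vestibular cells, and these were Cd163, Ltc4s and F13a1. Cd163, the receptor that clears haemoglobin-haptoglobin complexes (chr6:124304656-124330527), stood at 54.3, 23.3, 7.56 and 45.6 CPM in cochlear macrophages and at 691, 160.4, 153 and 157 CPM in vestibular ones. All vestibular libraries were above all cochlear ones, and vestibular replicate 1 stood far above the rest. The fitted level was 9.50-fold higher in the vestibule (log2 cochlea minus vestibule −3.25 ± 0.61 SE, edgeR adjusted p = 0.0315). It rested on 51 UMIs of Cd163 in the cochlear macrophages and 186 in the vestibular ones. In cochlear replicate 4 a count of 3 UMIs would stand at 11.3 CPM, so its 7.56 CPM lay below that count.

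Ltc4s, the synthase of leukotriene C4 (chr11:50236461-50238616), had 97.8, 169.9, 64.2 and 149.9 CPM in the cochlea and 490.2, 363, 525 and 235 CPM in the vestibule (log2 −1.75 ± 0.36, edgeR adjusted p = 0.0410). F13a1, the coagulation factor XIII subunit that macrophages make (chr13:36867178-37050244), had 217, 273, 109.6 and 183 CPM in the cochlea and 557, 532, 655 and 478 CPM in the vestibule (log2 −1.58 ± 0.31, edgeR adjusted p = 0.0392). Neither gene overlapped between the organs. With UMIs pooled over the vestibular libraries, macrophages exceeded the other cells 145-fold for Cd163, 242-fold for Ltc4s and 44.2-fold for F13a1.

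The border macrophage list as a whole ran in the same direction, though most of it did not pass. Of its 24 members, 20 were tested, 3 were higher in the vestibule and none in the cochlea. Of the 20, 19 had a negative log2 difference, and their median was −1.10 beside 0.02 over all genes tested. In 9 members all vestibular libraries exceeded all cochlear ones, where 2.36% of all genes did. Without regard to direction the organs did not overlap in 5.23% of all genes, and in 2.88% the cochlea was higher. A closer background was the 302 tested genes with at least a 4-fold higher level in macrophages than in other cells, read in the organ where the gene was higher. This set still held members of the border list and the rule genes, so it was not independent of the list. The median of the 302 was −0.35, and without overlap the vestibule was higher in 28 of them and the cochlea in 1. Mrc1, the mannose receptor, had 249.9, 546, 144 and 606 CPM in the cochlea and 847, 879, 1246 and 791 CPM in the vestibule (log2 −1.36 ± 0.41, edgeR adjusted p = 0.222). Lyve1, a hyaluronan receptor, had 65.2, 159, 7.56 and 65.2 CPM against 334, 381, 619.9 and 194 CPM (log2 −2.29 ± 0.58, edgeR adjusted p = 0.124). Both were free of overlap, although neither passed. Selenop, a selenium carrier protein, overlapped between the organs, with 1282, 978, 382 and 867 CPM against 2117, 1269, 1694 and 1537 CPM (edgeR adjusted p = 0.313). Pf4 overlapped too, with 478, 407, 1032 and 456 CPM against 869, 745, 1193 and 664 CPM (log2 −0.63, edgeR adjusted p = 0.647). Cochlear replicate 4 was its highest cochlear library. The mean of Igf1, a growth factor of the list, was higher in the cochlea (152 and 75.2 CPM).

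Gas6 and Maf were named after their values were seen. Gas6, a bridging ligand for the engulfment of dead cells, had 141, 130.3, 49.1 and 84.7 CPM in the cochlea and 423, 248, 289 and 202 CPM in the vestibule (log2 −1.54 ± 0.35, edgeR adjusted p = 0.0634). Maf, a transcription factor of resident macrophages, had 391, 465, 139.8 and 372 CPM in the cochlea and 1582, 966, 850.1 and 602 CPM in the vestibule (log2 −1.59 ± 0.39, edgeR adjusted p = 0.0957). The organs did not overlap in either gene.

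**Figure D2:**
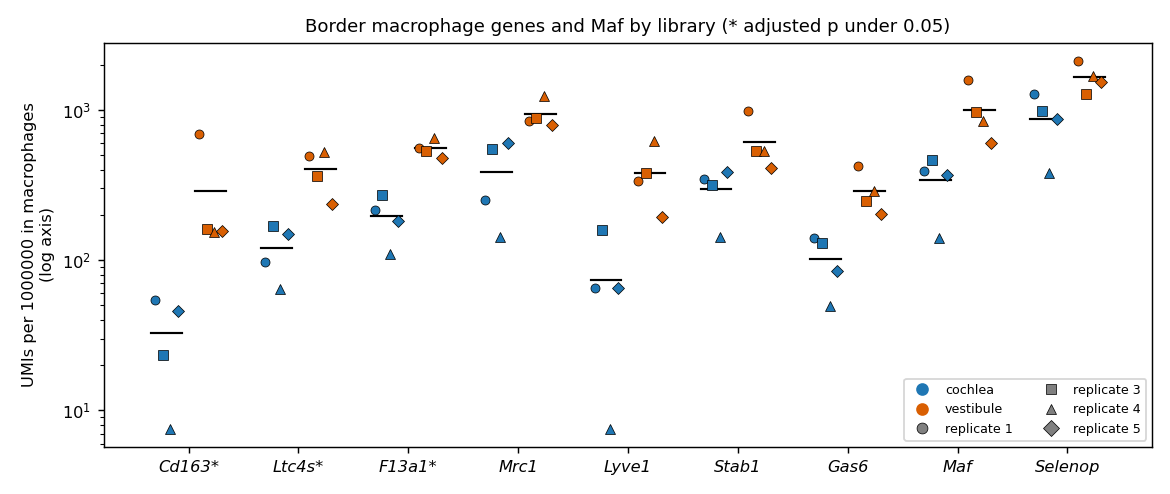
UMIs per 1000000 (log axis) of border macrophage genes and Maf in the macrophages of each library, cochlea in blue and vestibule in orange, with symbols for replicates, lines for the means of 4 libraries and an asterisk for an edgeR adjusted p under 0.05. Cochlear replicate 4 is the lowest library for all 9 genes shown, and among these chosen genes the organs overlap for Selenop alone. Of the 20 border macrophage genes tested, just 9 were free of overlap with the vestibule higher.

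The count of calls depended strongly on single libraries and on the cells with markers of other types. Without cochlear replicate 4, which was lowest for all 9 genes just plotted, edgeR called none of 2614 genes (191 at an unadjusted p under 0.05). It called 111 without cochlear replicate 1, 78 without vestibular replicate 1, 17 and 16 without vestibular replicates 3 and 4, and 3 without vestibular replicate 5. Among the 245 macrophages without markers of another cell type, the log2 difference was −0.49 for Ltc4s and −0.36 for F13a1, and Cd163 had no value. There, none of 485 genes was called (7 at an unadjusted p under 0.05). With fibrocyte markers not counted among those, 524 macrophages stayed and 7 of 1272 genes were called. The log2 difference was then −1.15 for Ltc4s, −1.16 for F13a1 and −2.54 for Cd163, and none of these passed. The fibrocyte list moved with the organs as given above, and its part in the result was not tested.

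The 100 bases before the outermost annotated start of 5 border macrophage genes are shown. Of these, Cd163, Ltc4s and F13a1 differed between the organs, and Mrc1 and Pf4 served to divide the cells. The letters GAGGAA or TTCCTC, a form of the site bound by the myeloid factor PU.1 on either strand, are in capitals. The sequences are from RefSeq promoter sequences of GRCm38.p6, the same build as mm10, written 5′ to 3′ on the strand of the gene.
Cd163 (chr6:124304551-124304650, strand +): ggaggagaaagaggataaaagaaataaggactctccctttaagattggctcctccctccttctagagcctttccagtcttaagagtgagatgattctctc
Ltc4s (chr11:50238617-50238716, strand -): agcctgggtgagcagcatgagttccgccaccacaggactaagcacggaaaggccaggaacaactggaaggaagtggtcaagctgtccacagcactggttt
F13a1 (chr13:37050245-37050344, strand -): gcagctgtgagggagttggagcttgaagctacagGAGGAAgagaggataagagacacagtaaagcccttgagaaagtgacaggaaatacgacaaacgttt
Mrc1 (chr2:14229292-14229391, strand +): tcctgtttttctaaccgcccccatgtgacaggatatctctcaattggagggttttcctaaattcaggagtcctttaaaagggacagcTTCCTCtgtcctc
Pf4 (chr5:90772335-90772434, strand +): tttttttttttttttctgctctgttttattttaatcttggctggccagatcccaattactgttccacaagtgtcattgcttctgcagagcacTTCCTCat
These exact letters occurred in F13a1, Mrc1 and Pf4 and not in Cd163 or Ltc4s. Shorter or altered forms of the site were not counted. The letters occurred in 9.82% of 32851 promoters in the 100 bases before the RefSeq start. The MAF half-site TGCTGA or TCAGCA occurred in none of the 5 windows and in 6.95% of all promoters. A match is a description of the sequence and not of a bound site.

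Genes higher in the cochlea were also found in the other cells at similar levels. None of the 20 had a level in cochlear macrophages 4-fold that of the other cochlear cells (the ratios ran from 0.315 to 1.60), and for 16 of them the other cochlear cells exceeded the other vestibular cells more than 2-fold. Emcn, an endothelial sialomucin, had 196, 602, 1410 and 1356 CPM in cochlear macrophages and 0, 30.0, 0 and 0 CPM in vestibular ones (log2 5.96 ± 0.87, edgeR adjusted p = 0.00989). In the other cells it had 479 CPM in the cochlea and 5.98 CPM in the vestibule, so that both compartments differed in the same direction. Emilin2, an extracellular matrix glycoprotein, had 282, 874, 2834 and 2353 CPM against 0, 109, 64.9 and 78.3 CPM (log2 4.31, edgeR adjusted p = 0.0230), with 782 and 48.1 CPM in the other cells. The uncharacterised transcript Gm14964 had 54.3, 101, 155 and 169 CPM against 0, 3.52, 0 and 4.12 CPM. Efemp1, a matrix protein, Plpp3, a lipid phosphatase, Mdk, a secreted growth factor, and Scd1, a fatty acid desaturase, had log2 differences of 4.19, 2.77, 2.58 and 2.59. Their calls were lost in 4 of 15, 6 of 17, 6 of 17 and 6 of 17 alternative settings. Those of Emcn, Emilin2 and Gm14964 were lost in 2 of 16, 4 of 19 and 0 of 13. Fgfr2, a fibroblast growth factor receptor, had 65.2, 54.1, 113 and 137 CPM against 0, 5.29, 11.8 and 0 CPM (log2 3.98 ± 0.63, edgeR adjusted p = 0.0168). Its other cells differed less, at 60.0 and 24.7 CPM, and the interaction of organ and population described further on also passed (log2 2.54), as it did for Nrbp2 (1.87).

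Id3 and Id2, inhibitors of basic helix-loop-helix transcription factors, were also called higher in the cochlea. Id2 had 445, 177, 219 and 137 CPM against 22.3, 70.5, 23.6 and 16.5 CPM (log2 2.45), and Id3, with 152, 337, 571 and 469 CPM against 134, 102, 82.7 and 28.9 CPM, was higher by a log2 difference of 2.19 ± 0.45 (edgeR adjusted p = 0.0410). Id3 was the only called gene of 12 tested macrophage transcription factors, whose median was −0.06. The other cells had 589 CPM of Id3 in the cochlea and 162 CPM in the vestibule, a difference in the same direction. The call was lost in 10 of 18 alternative settings for Id3 and in 7 of 18 for Id2. In the vestibule, the called genes other than the 3 border macrophage genes and Hist1h1c, a linker histone, were below the other vestibular cells. These were Ucma, a cartilage matrix protein, Rbp4, the retinol carrier, Ppp1r1a, a phosphatase inhibitor, Car3, a carbonic anhydrase, and S100b, a calcium-binding protein, with log2 differences of −6.30, −5.49, −4.65, −4.62 and −2.88. The call was lost in 1 of 18 alternatives for Ucma, 1 of 17 for Rbp4 and 5 of 18 for Car3. It was lost in 8 of 18 for Ppp1r1a, which ran from −9.78 to −2.89, in 8 of 19 for S100b and in 11 of 17 for Hist1h1c.

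**Figure D3:**
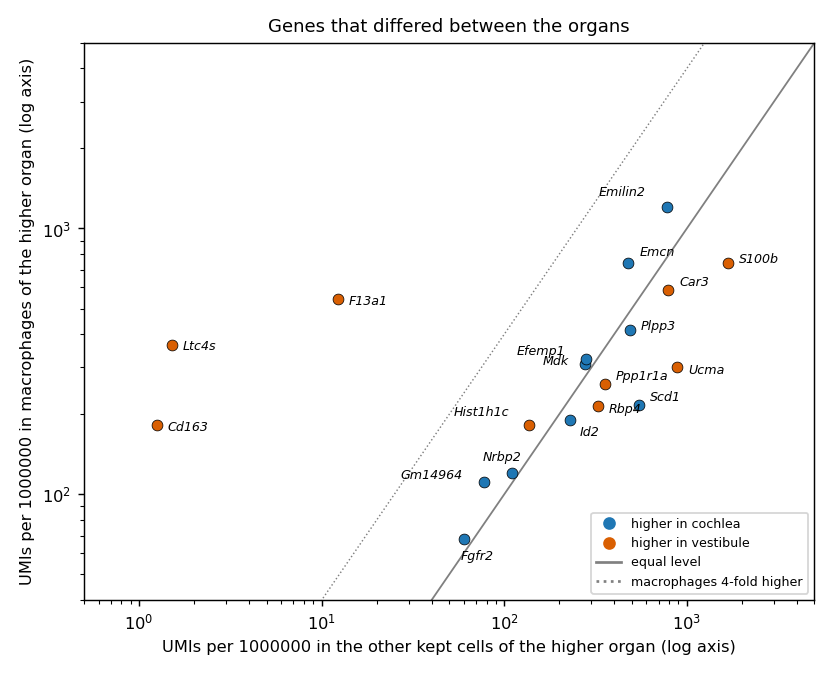
Genes that differed between the organs and that the selection rule for names gave, each plotted at its summed level in the other kept cells of the organ where it was higher (horizontal, UMIs per 1000000, log axis) and in the macrophages of that organ (vertical, same unit, log axis). The solid line marks equal levels and the dotted line macrophages 4-fold higher; Cd163, Ltc4s and F13a1 lie far above the dotted line and all other genes lie below it.

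Other gene lists held few or no calls. Over all genes 29 of 2886 were called (1.00%), so no call in a list this short says little about its members. None was called among 20 further identity genes of macrophages (median log2 −0.09), 11 microglial genes (−0.48), 8 genes of MHC class II antigen presentation (0.44), 23 lysosomal genes (0.05), 20 immediate early and dissociation stress genes (0.62) or 15 lipid handling genes (0.98). Cd163 was the only call among 9 genes of iron and haem handling.

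Spp1, which encodes osteopontin, was higher in every cochlear library without passing the test. It had 13210, 1713, 4467 and 1467 CPM in cochlear macrophages and 802, 1072, 1246 and 589 CPM in vestibular ones (log2 2.40 ± 0.62, edgeR adjusted p = 0.125). Cochlear replicate 1 stood far above the others. Among MHC class II genes, Cd74, the invariant chain, ranged from 1447 to 3455 CPM in the cochlear libraries and from 134 to 4013 CPM in the vestibular ones, and H2-Aa had no UMI in the 11 cells of vestibular replicate 1. Apoe, the lipid carrier apolipoprotein E, was lower in each cochlear library than in each vestibular library (log2 −0.66, edgeR adjusted p = 0.420).

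Whether macrophages differed between the organs otherwise than the other kept cells was asked with the interaction of organ and population in the same libraries. Of 12881 genes, 215 passed (1.67%), 121 with a more positive and 94 with a more negative cochlea-minus-vestibule difference in macrophages. Of the 2886 genes also tested between the organs, 73 passed (2.53%), 20 with a more positive and 53 with a more negative difference, the opposite balance. The count was 363 without cochlear replicate 1, 105 and 107 without vestibular replicates 3 and 4, and 81 without macrophages with markers of another type (74 more positive and 7 more negative). After thinning it was 16 (5 and 11), and without cochlear replicate 3 it was 237 (100 and 137). Every gene named here passed edgeR's test at an adjusted p of 0.05. Spp1 had the reverse order in the 2 populations, with 5214 ± 5501 CPM in cochlear and 927 ± 290 CPM in vestibular macrophages but 1139 and 9210 CPM in the other cells (interaction log2 4.92). Cxcl14, a chemokine, had 187 ± 158 and 57.0 ± 63.6 CPM in macrophages, against 5.95 and 343 CPM in the other cells (interaction log2 7.50). In both genes the other cells were higher in the vestibule and the macrophages were not.

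In other calls the other kept cells differed between the organs more than the macrophages did. These other cells included 559 cells with 1 rule gene and 127 with 2, whose part in the levels was not tested. Trem2 had 609 and 547 CPM in cochlear and vestibular macrophages but 15.7 and 2.58 CPM in the other cells (interaction log2 −2.31). Lgals1, a galectin, had 948 and 1019 CPM in macrophages, but 2417 and 127 CPM in the other cells (−4.47). Jun, an immediate early transcription factor, had 561 and 544 CPM in macrophages and 241 and 50.8 CPM elsewhere (−1.99). These macrophage levels were close between the organs, and the other cells were higher in the cochlea. Gas6 was of the other kind, with 101 and 291 CPM in macrophages and 22.7 and 20.0 CPM in the other cells (−1.80), and so was Selenop, with 877 and 1654 CPM in macrophages and 168 and 144 CPM in the other cells (−1.28). Of 16 alternatives, Selenop failed the test in 8 (weakest difference −0.31), Trem2 in 3, and Gas6 (weakest −0.30) and Jun (weakest −1.09) in 2 each. Gas6 reached its weakest value without macrophages with markers of another type.

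A macrophage with a UMI of Mrc1 or Pf4 often had Cx3cr1 too. Of the 656 macrophages, 174 (26.5%) had Mrc1 or Pf4 without Cx3cr1, 266 (40.5%) had both, 130 (19.8%) had Cx3cr1 alone and 86 (13.1%) had none of the 3. Pf4 encodes platelet factor 4, a chemokine that border macrophages share with platelets. A UMI of Cx3cr1 was found in 60.5% of the cells with Mrc1 or Pf4 and in 60.2% of those without, over all libraries together. The libraries differed, with 33.3% against 81.8% in cochlear replicate 1, 62.4% against 61.8% in cochlear replicate 3 and 63.8% against 33.3% in vestibular replicate 4. Cx3cr1 is a gene of the rule, so these shares are a description. Median depths were 2259, 2821.5, 2453 and 1791.5 UMIs in the 4 classes. In the other kept cells a UMI of Mrc1 was found in 0.440%, of Pf4 in 0.781% and of Cx3cr1 in 0.558%. After thinning of every cell to 1000 UMIs, Cx3cr1 was seen in 45.8% and 37.2% of the cells with and without Mrc1 or Pf4.

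The share of cells with Cx3cr1 alone is given as a description, since Cx3cr1 helped to choose the macrophages, and the exact permutation test computed for it (p = 0.0286) supports nothing here. After thinning they made up 40.0%, 22.5%, 16% and 17.2% of macrophages in cochlear replicates 1, 3, 4 and 5 and 0%, 15.0%, 3.57% and 10.2% in the vestibular ones. The 0 of 11 cells in vestibular replicate 1 allows a share of up to 28.5% (exact binomial 95% interval, counting error only). The organs did not overlap, with means of 23.9 ± 11.1% and 7.20 ± 6.72% (SD, n = 4, difference 16.7 points). With 4 rule genes required, they overlapped (16% in cochlear replicate 5, 17.5% in vestibular replicate 3). They also overlapped at a mitochondrial limit of 10% and without macrophages with markers of another type. Unthinned means were 25.4 ± 14.2% and 6.58 ± 5.35%. Cells with Mrc1 or Pf4, with or without Cx3cr1, were 35.0%, 42.0%, 56.0% and 62.1% of cochlear and 90.9%, 57.1%, 69.6% and 65.3% of vestibular macrophages. These shares overlapped (48.8 ± 12.4% and 70.8 ± 14.4%, difference −22.0 points, two-sided exact permutation p = 0.0571, unchanged by adjustment over the 3 shares compared).

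**Figure D4:**
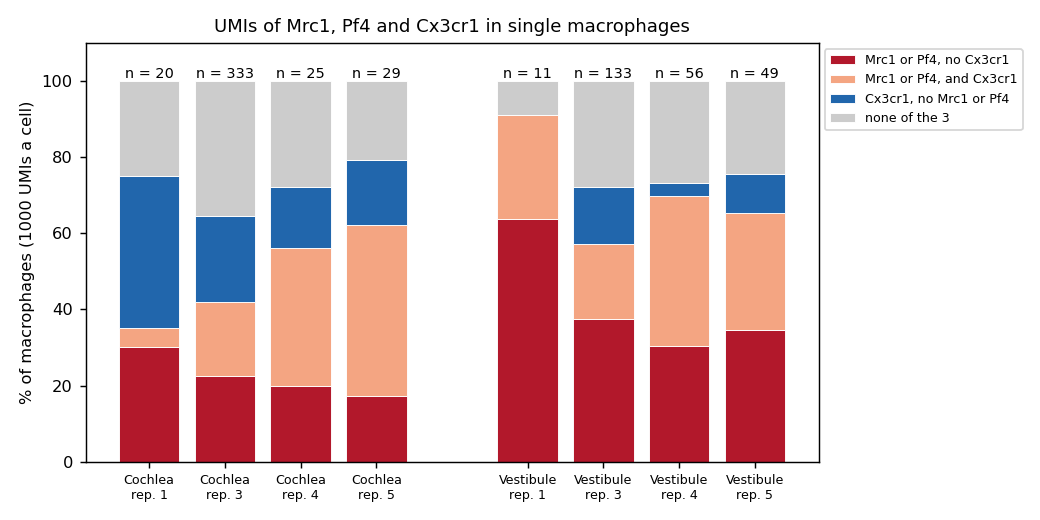
Percentage of the macrophages of each library, after thinning to 1000 UMIs a cell, in the 4 classes of detection of Mrc1, Pf4 and Cx3cr1, with the number of macrophages above each bar. The class with Cx3cr1 alone (dark blue) ranges from 16% to 40.0% in the cochlear libraries and from 0% to 15.0% in the vestibular ones.

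Within the macrophages that had Mrc1 or Pf4, the organ difference was computed again, as an addition made after the data were seen. Of 2331 genes, 4 were called, all higher in the vestibule, and these were Ucma, Rbp4, Car3 and S100b. Of 18 border macrophage genes tested apart from Mrc1 and Pf4, none was called, 15 were negative, and the median was −0.81. Cd163 stood at log2 −2.77 (edgeR adjusted p = 0.194), Ltc4s at −1.56 (0.264) and F13a1 at −1.14 (0.473).

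Mrc1 or Pf4 cells were compared with Cx3cr1 cells of the same libraries, and Ccl8 was higher in the former. The comparison was made within the 3 libraries that held at least 5 cells of each kind, cochlear replicates 1 and 3 and vestibular replicate 3, on cells with Mrc1 or Pf4 and no Cx3cr1 against cells with Cx3cr1 and neither of the others. Of 1803 genes, leaving out the 7 that chose the cells, Ccl8 alone passed (0.0555%), and 115 had an unadjusted p under 0.05. Ccl8, a chemokine that draws monocytes and T cells (chr11:82115185-82116799), had 707, 3949 and 736 CPM in the Mrc1 or Pf4 cells and 25.4, 47.7 and 0 CPM in the Cx3cr1 cells of these libraries. It was higher in 3 of 3 libraries, on 24, 1382 and 146 UMIs against 1, 19 and 0 (log2 6.26 ± 0.55, edgeR adjusted p = 0.0210). With Mrc1 alone to choose the cells it did not pass (log2 3.35, edgeR adjusted p = 0.148), nor did it when the fit left out the library as a block (5.78, edgeR adjusted p = 0.0558).

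No member of the border macrophage, MHC class II or microglial lists passed in these 3 libraries, where 0.0555% of all genes did. Of the 24 members of the border macrophage list, which include Mrc1 and Pf4, 10 others had enough counts to be tested. All 10 had a positive log2 difference, Mrc1 or Pf4 cells minus Cx3cr1 cells, with a median of 1.83 beside −0.01 over all genes. A gene nearly absent from 1 class could enter the test only through the class where it was high. The classes were also cut on genes of this list, so the shared direction is a description. F13a1 stood at 2.79 (edgeR adjusted p = 0.0553), Ninj1, an adhesion protein, at 2.14 (0.0839) and Wfdc17, a secreted inhibitor, at 1.97 (0.175). Fcna, a ficolin of the lectin complement pathway named after its values were seen, had 3, 183 and 65 UMIs in the Mrc1 or Pf4 cells and none in the Cx3cr1 cells of these libraries. All 7 MHC class II genes had a negative difference, with a median of −2.15. Cd74 had 29.5, 1452 and 1679.8 CPM in the Mrc1 or Pf4 cells and 1959, 2823 and 11123 CPM in the Cx3cr1 cells (log2 −2.54, edgeR adjusted p = 0.411). Of 9 microglial genes 7 had a negative difference, with a median of −1.15, among them P2ry12, a purine receptor, at −2.87 (edgeR adjusted p = 0.0839).

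DESeq2 called 13 genes on the same sums. Fcna, Ccl8, Wfdc17, F13a1, Ninj1, Selenop and Cfp were higher in the Mrc1 or Pf4 cells, and P2ry12, Sparc, H2-Ab1 and Cd74 were among those lower. With libraries of at least 3 cells of each kind admitted, a setting added after the data were seen, 6 libraries entered and edgeR called 4 of 659 genes. Wfdc17 (log2 2.80) and Ninj1 (log2 2.16), both of the border macrophage list, were higher in the Mrc1 or Pf4 cells and Pmepa1 and Epb41l2 were lower, while Ccl8 was not among the genes tested. Without vestibular replicate 3, edgeR called 28 genes, those that chose the cells included.

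**Figure D5:**
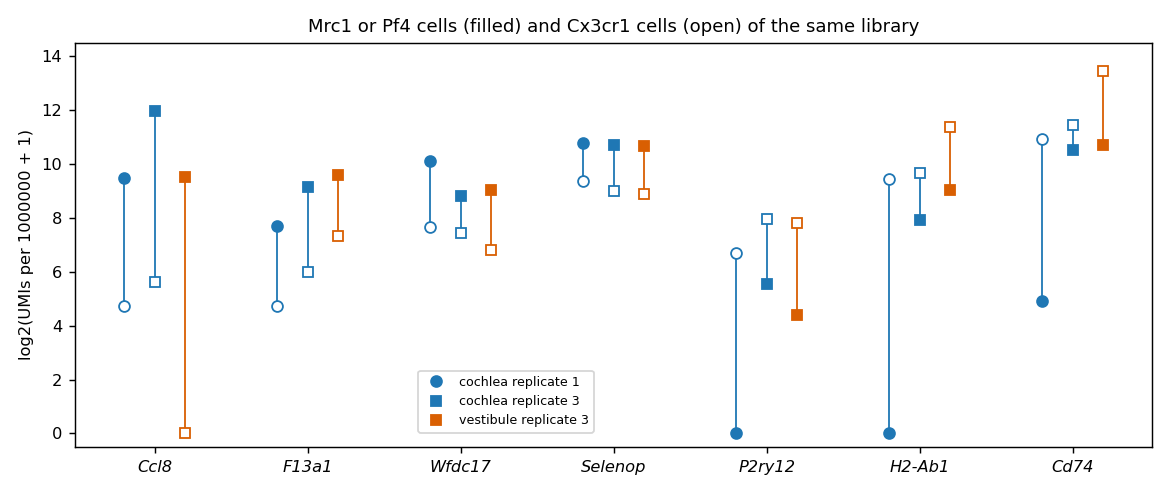
Levels as log2 of UMIs per 1000000 plus 1 of 7 genes in cells with Mrc1 or Pf4 and no Cx3cr1 (filled) and with Cx3cr1 alone (open), joined within each of the 3 libraries tested, cochlea in blue and vestibule in orange. Ccl8, F13a1, Wfdc17 and Selenop are higher in the Mrc1 or Pf4 cells of each library, and P2ry12, H2-Ab1 and Cd74 are lower.

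With every macrophage assigned, 7 libraries could be compared and 9 of 1614 genes passed (0.558%), all higher in cells with Mrc1 or Pf4 than in cells without. This comparison was added after the data were seen. Stab1, a scavenger receptor (chr14:31139013-31168641), had 459 ± 154 CPM in cells with and 133 ± 95.7 CPM in cells without (log2 2.29 ± 0.35, edgeR adjusted p = 0.00551). Ccl12, a monocyte chemokine, had 854 ± 422 and 108 ± 79.5 CPM (log2 3.03), Hpgd, which degrades prostaglandins, 188 ± 90.2 and 49.2 ± 34.1 CPM (log2 2.26) and Maf 649.9 ± 336 and 208 ± 92.4 CPM (log2 1.69). Gas6, Hmox1, the haem oxygenase, Wfdc17, Selenop and Ap2a2, an adaptor of endocytosis, completed the list at 2.00, 1.59, 1.61, 1.21 and 1.40. Each of the 9 was higher in all 7 libraries, except Ccl12 in 6. The MHC class II genes showed little difference here, with a median of −0.24.

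The contrast between cells with and without Mrc1 or Pf4 was not shown to differ between the organs. By edgeR, 0 of 1621 genes passed with every macrophage assigned (52 at an unadjusted p under 0.05). For Mrc1 or Pf4 cells against Cx3cr1 cells, in the 3 libraries with at least 5 cells of each kind, a single vestibular library stood against 2 cochlear ones, so that no organ difference of that contrast is given.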

How the data were processed

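The deposited files held, per the file headers and the labels, UMI counts per gene and barcode that the authors made from 10x Chromium 3′ libraries with Cell Ranger and mm10. The headers name version 5.0.1 for replicates 1 and 2 and version 6.1.2 for the others. Each organ had 1 library of the older version among those used, too few for values within that version. Replicates 3, 4 and 5 of both organs, of version 6.1.2, were not compared on their own. Replicate 2 shared 1313 cochlear and 1633 vestibular barcodes with replicate 1 and was used only as an alternative. The other 8 libraries shared at most 41 barcodes in any pair. No doublets were called or removed. Instead, macrophages with a UMI of at least 3 markers of another cell type were counted and left out as an alternative.

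The counts of 32285 genes were summed over the macrophages of each library and tested with edgeR 4.0.16 (quasi-likelihood, TMM, filterByExpr, Benjamini-Hochberg at 0.05) in R 4.3.3, on organ alone, on the interaction of organ and population with library as a block, and on the cell classes with library as a block. DESeq2 1.42.0 was an alternative. Levels are CPM over all UMIs of the summed cells. Shares were compared over libraries with exact permutation tests (scipy 1.17.1). P-values measure the spread between these pooled libraries. Gene positions came from GENCODE M21, matched for 32235 genes.

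The members, the 35 gene lists (21 functional, 14 of other cell types) and the tests were chosen with earlier results of these data known. Genes were named by rule: up to 10 per direction and comparison with the largest difference among called genes whose libraries did not overlap, up to 4 per list, the 10 most abundant genes, and the genes that chose the cells. Some genes are not reported here. Other names are marked as chosen after their values were seen. In simulated data with 4-fold changes, 98.4% of 189 changed genes were called between organs, 29.4% of 197 in the interaction and 84.5% of 174 between cell classes, while 3.63%, 3.33% and 4.55% of calls were unchanged genes. Intervals cover counting error only.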

Additional observations from a re-analysis of the deposited data

Results flagged for a closer look

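In 9 of 66 groups of 4 libraries, 1 library lay apart from the other 3 by more than Dixon's 95% critical ratio, where chance flags about 1 in 20 groups. Cochlear replicate 3 stood apart in the share of macrophages among kept cells, at 6.57%. Among genes named for the organ difference, vestibular replicate 3 stood above the other vestibular libraries for Emcn (30.0 CPM), Efemp1 (40.5 CPM) and Id2 (70.5 CPM). Cochlear replicate 3 stood above the other cochlear libraries for Ucma (10.1 CPM) and Ppp1r1a (41.5 CPM). These 5 values are low levels of genes that were abundant in the other organ. Vestibular replicate 1, with 11 macrophages, stood apart for Cd163 (691 CPM) and Ppp1r1a (1582 CPM), and cochlear replicate 1, with 20, for Hist1h1c (109 CPM).

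By edgeR's test of the interaction, the organ difference in macrophages differed from that in the other kept cells for the genes listed here. They are 16 of the genes named in the text or chosen after their values were seen. Ptgds, with a more negative difference, and Myo6, with a more positive one, also passed and are not listed. The interaction is given as a log2 difference of differences, cochlea minus vestibule. It was positive for Cxcl14 (7.50), Spp1 (4.92), Bmp2, a bone morphogenetic protein (3.53), Fgfr2 (2.54) and Nrbp2 (1.87). It was negative for the B cell chemokine Cxcl13 (−5.65), Lgals1 (−4.47), the elastase Mmp12 (−4.19), Hpgd (−3.31), Car3 (−2.76), the growth factor Igf1 (−2.44), Trem2 (−2.31), Jun (−1.99), Gas6 (−1.80), Selenop (−1.28) and Maf (−1.18). In Cxcl13 the macrophages of the organs stood at 122 and 120.0 CPM and the other cells at 29.3 and 0.716 CPM.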

How the results depend on the processing

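The count of 29 genes called between the organs was not steady. It was 68 with DESeq2, 501 with no filter on low counts (292 higher in the cochlea and 209 in the vestibule), 3 when 4 rule genes were required, 9 after thinning to 1000 UMIs (1 higher in the cochlea and 8 in the vestibule), 0 without macrophages with markers of another type and 7 when fibrocyte markers were not counted among those (2 and 5), 4 in macrophages with Mrc1 or Pf4, and from 0 to 111 with each library left out. With the replicate number as a block it was 7. The numbers were not taken as pairs, since libraries with the same number correlated at −0.0926, 0.146, 0.105 and −0.129. The 215 interaction calls became 366 with no filter, 81 without macrophages with markers of another type, 16 after thinning, and 105 to 363 with a library left out. With 3 genes that chose the cells included, the 4 genes called between cell classes became 15 with DESeq2, 86 with no filter, 18 with 4 rule genes, 27 without macrophages with markers of another type, 1 after thinning, 0 with Mrc1 alone, 11 with every macrophage assigned, 3 with no replicate block, and 4 to 28 with a library left out. H2-Aa reversed to 0.030 with every macrophage assigned. The difference in macrophage share ranged from 1.17 to 2.32 points with a library left out, and that in Cx3cr1-only cells from 11.4 to 19.4; the latter was 21.4 with 4 rule genes, 15.7 without macrophages with markers of another type and 15.2 at a mitochondrial limit of 10%, and both shares are descriptions because they rest on rule genes. Cd163 was negative in all 18 alternatives (−3.49 to −2.54) and passed in 12, F13a1 in all 20 (−1.81 to −0.36) and passed in 9, Ltc4s in all 20 (−2.01 to −0.49) and passed in 10, and Ccl8 was positive in all 13 (3.35 to 6.66) and passed in 11. Cd163 had no value after thinning, nor without macrophages with markers of another type. In the latter setting F13a1 and Ltc4s were weakest. The causes of these changes were not tested.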

Other observations

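Other gene groups of these macrophages showed no call between the organs by edgeR, where 1.00% of all genes were called. At that share, no call in groups this small says little about them. The 13 mitochondrially encoded respiratory genes all had a negative cochlea-minus-vestibule difference (median log2 −0.47, 0 called), and so did the 8 cell cycle genes tested (median −1.12, 0 called), where the median over all genes was 0.02. Interferon response genes had a median of −0.23 over 11 tested. Il1b and Tnf, inflammatory cytokines, stood at 54.8 ± 106 and 24.5 ± 20.3 CPM (SD, n = 8), far below the level of Apoe.

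In 20 macrophages a UMI of at least 3 osteoclast markers was found, 13 of them in the cochlea. They made up 5 of the 25 macrophages of cochlear replicate 4 and 32.9% of its macrophage UMIs, with a median of 17084 UMIs a cell. Ocstamp and Calcr, which mark mature osteoclasts, had no UMI in any macrophage, and Atp6v0d2, a proton pump subunit, was the most abundant gene of the list at 85.6 CPM. Without these 20 cells, 28 genes were called between the organs.

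Haemoglobin and granulocyte transcripts in macrophages varied by library. The 6 erythroid genes summed to 315, 9979, 109.6 and 13825 CPM in the cochlear libraries and to 44.6, 19090, 50122 and 162598 CPM in the vestibular ones. The 10 granulocyte genes reached 7444 and 5058 CPM in vestibular replicates 3 and 5 and at most 160.5 CPM in each other library, and S100a9 was the most abundant of them.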
